A study of Mus musculus with 8 samples.

Results

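The genes described here are 45 genes of the cell cycle, chosen by name from a list, with earlier results of these data known. They comprise 20 genes used mainly between G1 and S phase, here called G1/S members, and 25 genes used mainly in G2 and mitosis, here called G2/M members. All 45 were among the 55401 genes listed in the count table, and all 45 were among the 15461 genes that passed the filter on low counts and were tested. The RNA came from 8 lines of mouse embryonic fibroblasts (MEFs), isolated from E14.5 embryos. The 4 SLMAP3-/- lines lack SLMAP3, a tail-anchored protein of the STRIPAK phosphatase complex, because exon 3 of Slmap, flanked by loxP sites, was removed in the whole animal by Cre driven by the CMV promoter. The 4 WT lines carried no such deletion, and all 8 lines, labelled as strain B6C3F1, were immortalized with a plasmid encoding the SV40 large T antigen and grown in serum without any further treatment. Each line gave 1 library, so a difference between lines and a difference between libraries cannot be told apart.

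Cells pass into S phase when cyclin-dependent kinases release E2F transcription factors from the retinoblastoma protein family, and E2F then drives the genes for DNA replication. Genes for mitosis are switched on later by B-MYB and FOXM1, which act with the MuvB core at a promoter element called the cell cycle genes homology region (CHR), and in resting cells the DREAM complex keeps both sets low. The SV40 large T antigen binds the retinoblastoma family and p53, so that immortalized MEFs keep cycling in culture. In Hippo signalling, STRIPAK counteracts the MST kinases that restrain YAP, a co-activator of growth genes, and the study asked whether loss of SLMAP3 altered the cell cycle of MEFs. The comparison of these 45 genes bears on the RNA side of that question. By DNA staining, the study itself reported no significant cell cycle change in SLMAP3-/- MEFs.

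The sequences below show the promoter letters by which the G2/M and G1/S members are usually told apart. Promoters of the RefSeq annotation of GRCm38.p6, from 250 bases before to 50 bases after the start of a transcript, were searched on both strands and matched 16 of the 20 G1/S members and 19 of the 25 G2/M members. Ccnd1, Ccne2, Mcm4, Gmnn, Ccna2, Cdc25c, Aurkb, Kif20a, Tpx2 and Foxm1 had no entry. The first 7 windows, of 30 bases each, hold a CHR, searched as TTTGAA or TTCGAA, and run 5′ to 3′ on the strand of the gene. They lie at chr7:122159453-122159482, plus strand for Plk1, at chr2:172370521-172370550, minus strand for Aurka, at chr9:70421533-70421562, minus strand for Ccnb2, at chr1:189688067-189688096, minus strand for Cenpf, at chr10:69352910-69352939, minus strand for Cdk1, at chr7:135716460-135716489, minus strand for Mki67 and at chr9:83834684-83834713, plus strand for Ttk. Capitals mark the CHR, which in Ttk is on the opposite strand and so reads as its reverse complement.
Plk1: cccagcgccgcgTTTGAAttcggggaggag
Aurka: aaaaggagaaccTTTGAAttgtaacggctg
Ccnb2: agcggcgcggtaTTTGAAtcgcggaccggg
Cenpf: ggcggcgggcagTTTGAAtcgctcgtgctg
Cdk1: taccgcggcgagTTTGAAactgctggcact
Mki67: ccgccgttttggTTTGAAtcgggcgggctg
Ttk: cagcggggaaatTTCAAAcgtgtttccgga

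The next windows hold an E2F element, searched as TTTCGCGC, TTTCCCGC, TTTGGCGC or TTTGCCGC, and capitals mark it. They lie at chr11:98908002-98908031, plus strand for Cdc6, at chr1:20820275-20820304, minus strand for Mcm3, at chr8:75109349-75109378, plus strand for Mcm5, at chr5:138171849-138171878, minus strand for Mcm7 and at chr10:69353025-69353054, minus strand for the E2F element of Cdk1. In Cdc6 and Mcm3 the element is on the opposite strand, and in Mcm5 an element on each strand overlaps the other, so the capitals cover both.
Cdc6: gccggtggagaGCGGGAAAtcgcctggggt
Mcm3: aaacttccgtgGCGGGAAAacttgggaagt
Mcm5: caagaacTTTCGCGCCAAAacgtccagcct
Mcm7: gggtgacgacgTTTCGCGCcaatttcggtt
Cdk1: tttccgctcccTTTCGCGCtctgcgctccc

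A CHR stood in the promoters of 14 of 19 G2/M members (73.68%) and 3 of 16 G1/S members (18.75%), against 21.66% of the 27025 genes in the promoter table. An E2F element stood in 8 of 16 G1/S members (50%) and in Cdk1 alone among 19 G2/M members (5.263%), against 2.605% of all genes. The CCAAT box, bound by NF-Y, was searched as CCAAT and stood in 16 G2/M members (84.21%) and 10 G1/S members (62.5%), against 41.06% of all genes. All 14 G2/M members with a CHR also had a CCAAT box, a pair found in 9.654% of all genes. In Mcm7 the E2F element printed above overlaps a CCAAT box. These are matches of letters and not measured binding.

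The total estimated count was between 49879059 and 63322486 per line. Slmap, the targeted gene, was at 32.7 to 44.3 CPM in SLMAP3-/- lines and at 124 to 143 CPM in WT lines, without overlap. CPM is the count scaled to a common library size after TMM normalization between lines. All 11 fibroblast markers examined were tested, with summed levels of 15830 to 21624 CPM in SLMAP3-/- and 18881 to 23732 CPM in WT lines. The markers were uneven, with Fn1 at 5481 to 9234 CPM over all lines. Dcn was at 0.323 to 14.8 CPM and Lum at 0.113 to 18.5 CPM, and Pdgfra was at 17.4 CPM in WT replicate 1. Of the epithelial markers 3 of 6 were tested and summed to at most 4.64 CPM in any line, with Krt8, Krt5 and Cldn4 below the filter. Of the blood markers 2 of 5 were tested and summed to at most 5.30 CPM, with Ptprc and Hbb-bs below the filter. The endothelial markers tested (2 of 5) summed to at most 29.8 CPM with Pecam1 and Cdh5 below the filter, and the skeletal muscle marker tested (1 of 4) was at most 0.425 CPM, with Myod1 and Myog below the filter. The neural markers tested (2 of 4) summed to 70.4 to 133 CPM in SLMAP3-/- and 89.9 to 260.4 CPM in WT lines, with Sox10 and Nefl below the filter. The line labelled SLMAP3-/- replicate 4 stood apart in the genes described here. It had the highest level of all 8 lines for 23 of the 25 G2/M members, and the lowest for 7 of the 20 G1/S members. It also had the lowest sums of the fibroblast markers and of the neural markers, and the part of these in the cell cycle values was not tested. The main group values are therefore also given without this line, and the plot of fold changes shows each member without it.

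None of the 45 cell cycle genes was called different between SLMAP3-/- and WT MEFs. Some log2 fold changes exceeded the standard deviation of log2 CPM between lines of a genotype, as for Plk1, at 0.28 against 0.19. The G2/M members were all somewhat higher on average in SLMAP3-/- lines, with a median log2 fold change of 0.19 over 25 genes, and the G1/S members had a median of -0.060. Most of the G2/M difference came with SLMAP3-/- replicate 4, without which the medians were 0.051 and -0.027. By the quasi-likelihood test of edgeR, with p-values adjusted over all tested genes after Benjamini and Hochberg, 0 of 45 members had an adjusted p under 0.05, where 1 of 15461 tested genes, Slmap, did (0.00647%). The adjusted p of each member was 1.00. At an unadjusted p under 0.05 there were also 0 members, against 1.81% of tested genes, and the lowest unadjusted p of a member was 0.0632, for Plk1. DESeq2 gave 0 members at an adjusted p under 0.05, where it called 0.0325% of 33816 genes, and limma-voom gave 0 members as well.

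In no member did the 4 SLMAP3-/- lines separate from the 4 WT lines, which happened in 1.25% of tested genes. The lowest two-sided exact permutation p of a member was 0.0571, for Mcm2, and 4 lines against 4 cannot give less than 0.0286. The 95% interval of the log2 fold change lay between -1 and 1, that is within a 2-fold difference either way, for 44 of 45 members, against 70.9% of tested genes. Many tested genes have lower counts, and of the 10296 genes in the range of levels of the members 9324 had such an interval. The exception was Ccnd1. For the G2/M members the lowest bound was -0.28 and the highest 0.88, with single intervals as narrow as -0.070 to 0.37 for Ccnb2. Every member but E2f2, with 193 counts in its lowest line, had at least 1093 counts in each line. The part of counting error in these intervals was not tested.

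The log2 fold change was above 0 for 31 of 45 members, against 49.5% of tested genes. By group it was above 0 for 25 of 25 G2/M members, from 0.057 for Ttk to 0.35 for Cenpf, and for 6 of 20 G1/S members, whose values ran over the whole group from -0.65 for Ccnd1 to 0.051 for Tyms. Without SLMAP3-/- replicate 4 it was above 0 for 20 of 25 G2/M members, 7 of 20 G1/S members and 48.3% of all tested genes. Leaving out SLMAP3-/- replicate 1 gave 24 of 25, and leaving out any of the other 6 lines gave 25 of 25. The members share their lines and, in the G2/M group, move together across them, so 25 genes of the same sign are not 25 separate observations.

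**Figure D1:**
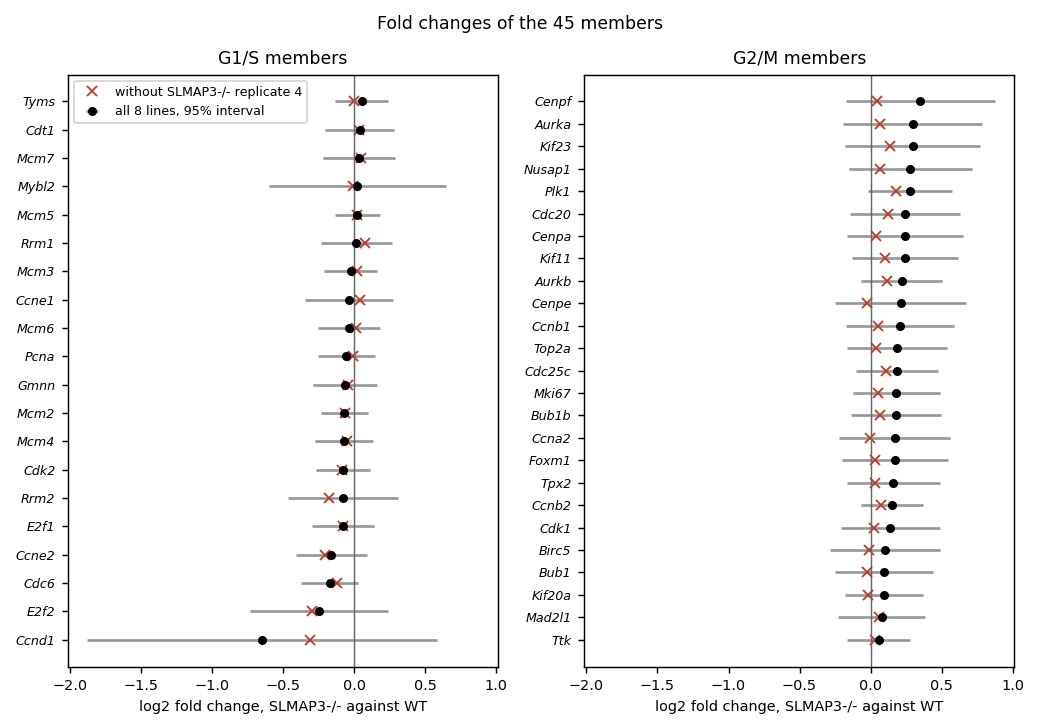
Log2 fold change of each G1/S member (left) and G2/M member (right), SLMAP3-/- against WT, with the edgeR estimate from all 8 lines (black points) and its 95% interval (grey bars), and the estimate without SLMAP3-/- replicate 4 (red crosses). Every interval holds 0, the G2/M points all lie above 0, and the crosses of that group lie closer to 0, with a median of 0.051 against 0.19.

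Among the G1/S members, the cyclins and Cdk2 open the passage to S phase. Gene positions here and below are those of GENCODE M21 on GRCm38. Ccnd1 (ENSMUSG00000070348.5, chr7:144929931-144939925, minus strand) encodes cyclin D1, which links growth factor signals to phosphorylation of the retinoblastoma protein. Its levels were 153, 135, 65.4 and 20.96 CPM in SLMAP3-/- replicates 1 to 4 and 104, 169, 207 and 106 CPM in WT replicates 1 to 4. The lowest level, in SLMAP3-/- replicate 4, was 9.88-fold below the highest, in WT replicate 3, but SLMAP3-/- replicates 1 and 2 lay within the WT range. The log2 fold change of -0.65 had a standard error (SE) of 0.54 (95% interval -1.88 to 0.59, unadjusted p = 0.263 in edgeR), and it was -0.31 without SLMAP3-/- replicate 4. Ccnd1 had the largest spread of all members, with a standard deviation between lines of a genotype of 0.99 on the log2 scale.

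Ccne1 and Ccne2 encode the E-type cyclins, partners of Cdk2 at the start of S phase. Ccne1 (ENSMUSG00000002068.16, chr7:38097984-38107534, minus strand) was at 38.9, 35.3, 30.1 and 27.4 CPM in SLMAP3-/- replicates 1 to 4 and at 34.7, 37.1, 28.5 and 34.9 CPM in the 4 WT lines. The log2 fold change was -0.039 (SE 0.14). Both its highest and its lowest line were SLMAP3-/-. Ccne2 (ENSMUSG00000028212.16, chr4:11191351-11204779, plus strand) had 50.3, 47.6, 39.6 and 51.3 CPM in SLMAP3-/- lines and 55.6, 58.4, 47.9 and 49.4 CPM in WT lines. WT replicates 1 and 2 were above every SLMAP3-/- line and the other 2 WT lines were not, and the log2 fold change was -0.16 (SE 0.11, unadjusted p = 0.177 in edgeR). Cdk2 itself ranged over 82.2 to 96.7 CPM in SLMAP3-/- and 88.2 to 101 CPM in WT lines, and its fitted log2 value was -0.080. All 4 genes of this group had a fitted value below 0, and none passed the test.

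E2f1, E2f2 and Mybl2 encode transcription factors of the cycle, and Mybl2 encodes B-MYB, itself a target of E2F and an activator of mitotic genes. E2f1 (ENSMUSG00000027490.17, chr2:154559407-154569892, minus strand) was measured at 71.9, 62.0, 62.4 and 65.2 CPM in the SLMAP3-/- lines and 60.5, 68.0, 69.9 and 78.2 CPM in the WT lines. Its highest and its lowest line were both WT, and the log2 fold change was -0.081 (SE 0.096). Mybl2 (ENSMUSG00000017861.11, chr2:163054687-163084688, plus strand) had 61.9, 62.5, 47.3 and 62.1 CPM in SLMAP3-/- replicates 1 to 4 and 88.5, 65.7, 37.8 and 38.3 CPM in WT replicates 1 to 4. Here too the WT lines held both ends, the highest (replicate 1) 2.34-fold above the lowest (replicate 3), while 3 of the 4 SLMAP3-/- lines were nearly equal, and the log2 fold change was 0.022 (SE 0.27). With 0.45 on the log2 scale, Mybl2 followed Ccnd1 as the member with the largest spread within a genotype. E2f2 was low in all lines, at 3.86 to 5.64 CPM in SLMAP3-/- and 4.41 to 7.15 CPM in WT lines, and the fitted log2 value was -0.25 (SE 0.21).

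The origin licensing genes load the replicative helicase, whose 6 subunits are Mcm2 to Mcm7, onto DNA before S phase. Cdc6 (ENSMUSG00000017499.15, chr11:98907801-98923940, plus strand), which recruits the helicase to the origin, was at 55.8, 58.7, 55.01 and 48.2 CPM in SLMAP3-/- replicates 1 to 4 and at 67.5, 58.7, 61.5 and 58.1 CPM in WT replicates 1 to 4. SLMAP3-/- replicate 2 was above WT replicate 4, and the other 3 SLMAP3-/- lines were below all WT lines. The mean CPM was 54.4 ± 4.44 (SD, n = 4) for SLMAP3-/- and 61.4 ± 4.29 (SD, n = 4) for WT. This is a log2 fold change of -0.17 (SE 0.089), with an unadjusted p = 0.0839 in edgeR and 0.0857 in the exact permutation test. The value was -0.12 without SLMAP3-/- replicate 4. The other loading factor, Cdt1, and its inhibitor Gmnn had log2 fold changes of 0.038 and -0.066, with standard errors of 0.11 and 0.099.

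The helicase genes had the lowest median spread of all roles, with a standard deviation between lines of a genotype of 0.088 on the log2 scale. Mcm5 (ENSMUSG00000005410.6, chr8:75109569-75128439, plus strand) had 211, 218, 215 and 214 CPM in SLMAP3-/- lines and 218, 217, 207 and 203 CPM in WT lines, a 1.07-fold range over all 8 lines. The 95% interval of its log2 fold change, 0.021, ran from -0.14 to 0.18. Mcm2 (ENSMUSG00000002870.8, chr6:88883474-88898780, minus strand) was at 267, 283, 294 and 274 CPM in SLMAP3-/- lines and 295, 286, 298 and 295 CPM in WT lines. SLMAP3-/- replicate 3 lay within the WT range and the other 3 below it, and the log2 fold change was -0.070 (SE 0.073, unadjusted p = 0.363 in edgeR). This standard deviation was 0.0383 for Mcm5 and 0.0451 for Mcm2, the smallest of all members. Mcm3, Mcm4, Mcm6 and Mcm7 had log2 fold changes of -0.026, -0.074, -0.040 and 0.034, with standard errors from 0.082 to 0.11.

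Pcna, Rrm1, Rrm2 and Tyms serve DNA synthesis, as the sliding clamp of the polymerase, the subunits of ribonucleotide reductase and thymidylate synthase. Pcna (ENSMUSG00000027342.14, chr2:132249162-132253314, minus strand) was at 289, 285, 317 and 258 CPM in SLMAP3-/- replicates 1 to 4 and 282, 310.1, 295 and 306 CPM in WT replicates 1 to 4. The SLMAP3-/- lines held its highest and lowest values, in replicates 3 and 4, and the log2 fold change was -0.055 (SE 0.089). Rrm1 had 386 to 490.0 CPM in SLMAP3-/- and 408 to 490.4 CPM in WT lines, and Rrm2 had 163 to 269 and 199.6 to 285 CPM. Tyms was at 81.3, 79.0, 75.0 and 90.5 CPM in SLMAP3-/- lines and 81.7, 81.8, 77.4 and 73.6 CPM in WT lines, highest in SLMAP3-/- replicate 4 like most G2/M members. Divided by the length of the longest coding transcript, Pcna had the highest mean level of the 45 members, at 193 CPM per kilobase, and E2f2 the lowest, at 1.14. Because the deposited counts were already scaled for the average transcript length, this division by a single transcript is approximate.

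**Figure D2:**
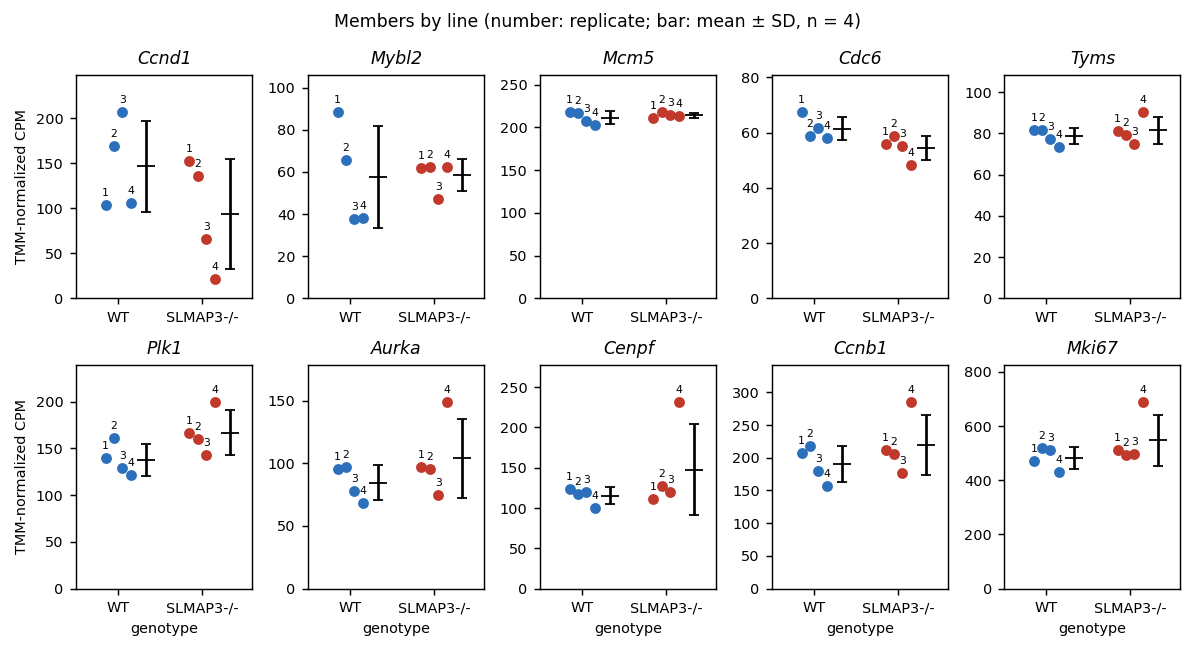
TMM-normalized CPM of 10 members in each line (blue, WT; red, SLMAP3-/-; the number is the replicate), with the mean ± SD of 4 lines as a bar beside each genotype; each axis starts at 0. Ccnd1 and Mybl2 spread widely in a genotype, Mcm5 hardly varies, and in Tyms and the lower 5 panels SLMAP3-/- replicate 4 is the highest of the 8 lines.

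Among the G2/M members, the cyclins with Cdk1 form the kinase that starts mitosis. Ccna2 (ENSMUSG00000027715.9, chr3:36564865-36572150, minus strand), the A-type cyclin of S phase and G2, was at 296, 298, 235 and 421 CPM in SLMAP3-/- replicates 1 to 4 and 299.8, 298.5, 258 and 254 CPM in WT replicates 1 to 4. SLMAP3-/- lines held both ends, with replicate 4 highest and replicate 3 lowest, and the log2 fold change was 0.17 (SE 0.17) with all lines and -0.0064 without replicate 4. Ccnb1 (ENSMUSG00000041431.16, chr13:100778650-100786570, minus strand), the main mitotic cyclin, had 212, 206, 176 and 285 CPM in SLMAP3-/- lines and 207, 218, 180.0 and 157 CPM in WT lines. Its SLMAP3-/- replicates 1 to 3 lay within the WT range and replicate 4 above it. The log2 fold change of Ccnb1 was 0.21 (SE 0.17), and 0.056 without that line.

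Ccnb2 (ENSMUSG00000032218.7, chr9:70407692-70421547, minus strand), the other B-type cyclin, was at 93.5, 94.3, 93.2 and 114 CPM in SLMAP3-/- lines and 97.1, 83.0, 91.7 and 83.9 CPM in WT lines. It showed the same picture on a smaller scale, with 3 SLMAP3-/- lines inside the WT range, and had the least spread of the G2/M members at 0.13 on the log2 scale. Its log2 fold change was 0.15 (SE 0.097, unadjusted p = 0.154 in edgeR). Cdk1 (ENSMUSG00000019942.13, chr10:69335146-69352938, minus strand) had 223, 179, 158 and 248.5 CPM in SLMAP3-/- lines and 195, 206, 164 and 171 CPM in WT lines. SLMAP3-/- replicates 1 and 4 were above all WT lines and replicate 3 below them, and the log2 fold change was 0.14 (SE 0.15). Cdc25c, the phosphatase that activates Cdk1, and Cdc20, the activator of the anaphase-promoting complex, had log2 fold changes of 0.19 and 0.24, with standard errors of 0.13 and 0.17.

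Plk1, Aurka and Aurkb encode kinases that build the spindle and divide the cell. Plk1 (ENSMUSG00000030867.7, chr7:122159439-122169873, plus strand), Polo-like kinase, was at 166, 159.6, 143 and 199.8 CPM in SLMAP3-/- replicates 1 to 4 and at 139.9, 161, 129 and 122 CPM in WT replicates 1 to 4. SLMAP3-/- replicates 1 and 4 were above all WT lines, and replicates 2 and 3 were not. The mean CPM of Plk1 was 167 ± 24.0 (SD, n = 4) for SLMAP3-/- and 138 ± 17.1 (SD, n = 4) for WT. The log2 fold change was 0.28 (SE 0.13, 95% interval -0.019 to 0.57), with an unadjusted p = 0.0632 in edgeR and 0.0857 in the exact permutation test. Without SLMAP3-/- replicate 4 its log2 fold change was 0.18, the highest of the G2/M members in that fit. With SLMAP3-/- replicate 3 or WT replicate 2 left out instead, its unadjusted p fell under 0.05, together with that of Aurkb in the former case and of Cdc20 in the latter, and the adjusted p of every member was still 1.00.

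Aurka (ENSMUSG00000027496.15, chr2:172356190-172370535, minus strand), the Aurora kinase of the spindle poles, had 97.2, 95.2, 74.4 and 149 CPM in SLMAP3-/- lines and 95.7, 96.9, 77.6 and 68.5 CPM in WT lines. It was 2.18-fold higher in SLMAP3-/- replicate 4 than in WT replicate 4, and its log2 fold change of 0.30 (SE 0.21) became 0.070 without the former. Aurkb (ENSMUSG00000020897.12, chr11:69045647-69051664, plus strand), the Aurora kinase of the centromere and midzone, was at 75.5, 68.4, 62.6 and 88.6 CPM in SLMAP3-/- lines and 66.0, 71.4, 58.6 and 57.5 CPM in WT lines. SLMAP3-/- replicates 1 and 4 were above all WT lines, as for Plk1, and the log2 fold change was 0.22 (SE 0.12, unadjusted p = 0.114 in edgeR), or 0.12 without replicate 4.

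The spindle checkpoint genes Bub1, Bub1b, Mad2l1 and Ttk hold anaphase until all chromosomes are attached. They had the lowest median log2 fold change of the G2/M roles, 0.088, with values of 0.097, 0.18, 0.079 and 0.057 and standard errors from 0.098 to 0.15. Ttk (ENSMUSG00000038379.15, chr9:83834689-83872389, plus strand), which encodes the checkpoint kinase MPS1, was at 60.0, 47.7, 50.2 and 56.0 CPM in SLMAP3-/- lines and 52.5, 55.5, 46.9 and 50.6 CPM in WT lines. For Ttk and Mad2l1 the highest line was SLMAP3-/- replicate 1 and not replicate 4, which held of no other G2/M member.

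Among motor and spindle proteins, Kif11, Kif20a and Kif23 are kinesins of the spindle and midzone, and Nusap1 and Tpx2 bind spindle microtubules. Their log2 fold changes were 0.24, 0.094, 0.30, 0.28 and 0.16, with standard errors from 0.12 to 0.21. SLMAP3-/- replicate 4 was the highest line for all 5, and without it the values were 0.10, -0.017, 0.14, 0.066 and 0.030. Cenpa, Cenpe and Cenpf encode the centromeric histone, a kinetochore motor and a large kinetochore protein. Cenpf (ENSMUSG00000026605.14, chr1:189640606-189688086, minus strand) had 111, 127, 119.7 and 232 CPM in SLMAP3-/- replicates 1 to 4 and 124, 118, 120.1 and 100.2 CPM in WT replicates 1 to 4. The other 7 lines lay close together, and its log2 fold change of 0.35 (SE 0.23), the largest of the 45 in the upward direction, was 0.045 without replicate 4. Cenpa and Cenpe had log2 fold changes of 0.24 and 0.21 with all lines, and 0.035 and -0.025 without that line.

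Foxm1, Birc5, Mki67 and Top2a complete the group as a mitotic transcription factor, the survivin subunit of the chromosomal passenger complex, the Ki-67 antigen and a DNA topoisomerase. Foxm1 (ENSMUSG00000001517.14, chr6:128362967-128376146, plus strand) was at 225, 209.9, 180.2 and 288 CPM in SLMAP3-/- lines and 207, 241, 178 and 177 CPM in WT lines (log2 fold change 0.17, SE 0.16). Mki67 (ENSMUSG00000031004.8, chr7:135689784-135716361, minus strand), often used to mark cycling cells, had 512, 493, 496 and 689 CPM in SLMAP3-/- lines and 469.5, 519.5, 512 and 429.8 CPM in WT lines (log2 fold change 0.18, SE 0.13). In both genes SLMAP3-/- replicates 1 to 3 lay inside the WT range. Birc5 (ENSMUSG00000017716.15, chr11:117849251-117855743, plus strand), also counted among YAP-responsive genes, was at 105, 103, 83.9 and 129 CPM in SLMAP3-/- lines and 112, 116, 81.8 and 81.2 CPM in WT lines. It split the WT lines into a higher and a lower pair, with the same 3 SLMAP3-/- lines between or inside them, and its log2 fold change was 0.10 (SE 0.17) with all lines and -0.0098 without replicate 4.

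**Figure D3:**
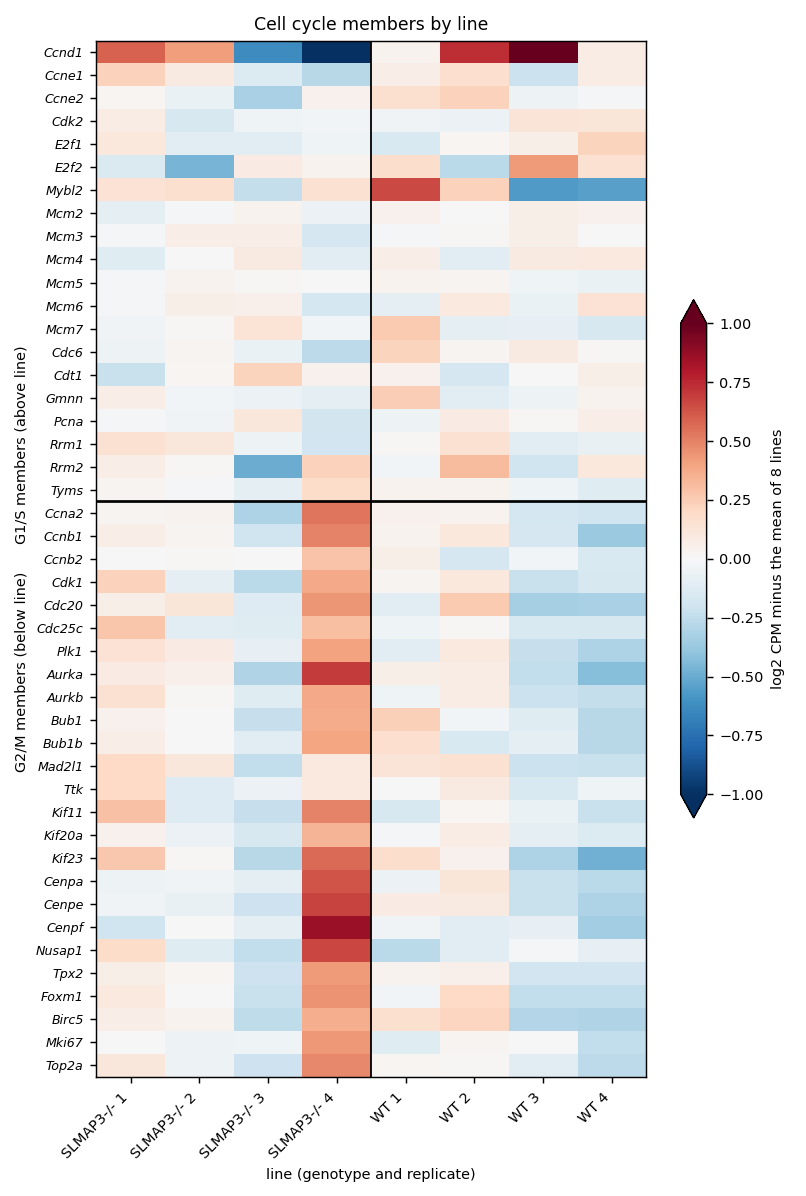
Log2 CPM of each member (rows, G1/S above the black line and G2/M below) in each line (columns, SLMAP3-/- left of the vertical line and WT right), less the member's mean over the 8 lines; red is above and blue below that mean, and the colour scale ends at -1 and 1. The column of SLMAP3-/- replicate 4 is red for nearly all G2/M members, of which it is the highest line for 23 of 25, and the G1/S rows follow no common pattern.

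Averaged over members, the lines could be ranked by their G2/M level, taken as the mean log2 CPM of the 25 genes relative to the 8 lines. The level was 0.096, -0.014, -0.18 and 0.45 in SLMAP3-/- replicates 1 to 4 and 0.0098, 0.052, -0.17 and -0.25 in WT replicates 1 to 4. SLMAP3-/- replicate 4 was highest, with a gap to the next line, SLMAP3-/- replicate 1, that exceeded the range of the WT lines. WT replicate 4 was lowest, and had the lowest level of all lines for 15 of 25 members, while SLMAP3-/- replicate 3 had it for 6. The difference between genotype means was 0.18, against standard deviations between lines of 0.27 in SLMAP3-/- and 0.14 in WT. It was 0.057 without SLMAP3-/- replicate 4.

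The G1/S level differed less between lines. It was 0.037, 0.0063, -0.072 and -0.16 in SLMAP3-/- replicates 1 to 4 and 0.084, 0.066, 0.026 and 0.011 in the WT lines, so that the groups overlapped. The difference between genotype means was -0.094, against standard deviations between lines of 0.088 in SLMAP3-/- and 0.034 in WT. It was -0.057 without SLMAP3-/- replicate 4. Ccnd1 alone carried much of the low level of that line, where its log2 CPM relative to the 8 lines was -2.27. Over the other 19 G1/S members the level was 0.0076, -0.016, -0.043 and -0.048 in SLMAP3-/- replicates 1 to 4. In WT replicates 1 to 4 it was 0.087, 0.031, -0.027 and 0.0080. SLMAP3-/- replicates 3 and 4 were thus nearly level. The difference between genotype means was then -0.050, against standard deviations of 0.026 in SLMAP3-/- and 0.048 in WT. The G2/M level of SLMAP3-/- replicate 4 exceeded its G1/S level by 0.61, or by 0.50 without Ccnd1, against -0.26 to 0.088 in the other 7 lines with or without that gene. As a share of all counts, the 25 G2/M genes took 0.483% ± 0.0937 (SD, n = 4) in the SLMAP3-/- group, where replicate 4 had 0.619%. In the WT group they took 0.422% ± 0.0259 (SD, n = 4). The difference of 0.0606 percentage points was 0.0151 without SLMAP3-/- replicate 4. The 20 G1/S genes took 0.318% ± 0.0136 (SD, n = 4) in SLMAP3-/- and 0.330% ± 0.0106 (SD, n = 4) in WT. In RNA of whole cultures, more cells in a phase of the cycle and more RNA per cell cannot be told apart, and no cell counts by phase for these 8 lines were analysed here.

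**Figure D4:**
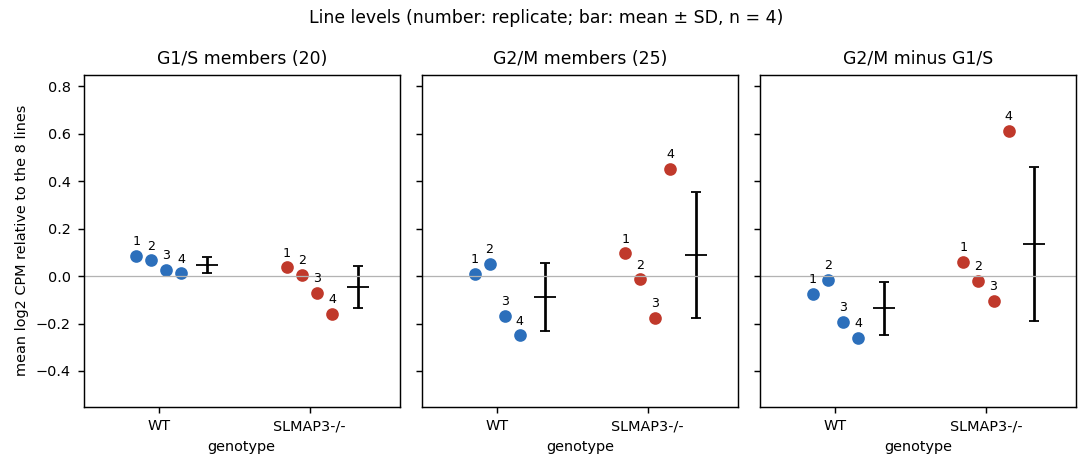
Mean log2 CPM relative to the 8 lines of the 20 G1/S members (left), the 25 G2/M members (middle) and their difference (right) in each line (blue, WT; red, SLMAP3-/-; the number is the replicate), with the mean ± SD of 4 lines as a bar. The genotypes overlap in each panel, and SLMAP3-/- replicate 4 lies at 0.45 in the middle panel and 0.61 in the right panel, above the other lines.

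The lines varied more in G2/M than in G1/S members. The standard deviation of log2 CPM between lines of a genotype had a median of 0.24 over G2/M members and 0.12 over G1/S members, against 0.28 over all tested genes and 0.20 over the 10296 tested genes of the same range of levels. Cenpf (0.36) and Aurka (0.34) varied most among the G2/M members, and Ccnb2 (0.13) and Ttk (0.13) least. Within WT lines the G2/M median was 0.15 and that of genes of like level 0.19. Within SLMAP3-/- lines it was 0.26, or 0.15 without replicate 4. Genes of like level had 0.19 within SLMAP3-/- lines and 0.16 without replicate 4, so the mitotic genes varied more than these only with that line.

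The G2/M members followed each other across lines and the G1/S members did not. With the genotype means removed, the Pearson correlation of log2 CPM over 8 lines had a median of 0.82 over the 300 pairs of G2/M members and was above 0 in 300 of them. It had a median of 0.0015 over the 190 pairs of G1/S members, of which 95 were above 0, and 0.00037 over 47586 pairs of tested genes taken at a fixed step. Without SLMAP3-/- replicate 4 the median over G2/M pairs was 0.69, with 279 above 0, so the common pattern was also present in the other 7 lines. The median over G1/S pairs was then -0.027. The 6 helicase subunits, which act as a single complex, had a median of 0.20 over their 15 pairs with all lines and 0.026 without that line. All pairs share the same few libraries, and these values describe the 8 lines only.

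Some G1/S members sided with the G2/M pattern. Against the mean of the G2/M members over 8 lines, Tyms had a correlation of 0.99, Ccne2 of 0.83 and Rrm2 of 0.74, whereas Mcm3 had -0.87, Pcna -0.79 and Mcm4 -0.77. Among the G2/M members, each compared with the mean of the others, the range was from 0.59 for Ttk to 0.99 for Aurka. Between G1/S and G2/M members the median was -0.18 over 500 pairs, and it was 0.12 without SLMAP3-/- replicate 4, so the sign rested on that line.

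**Figure D5:**
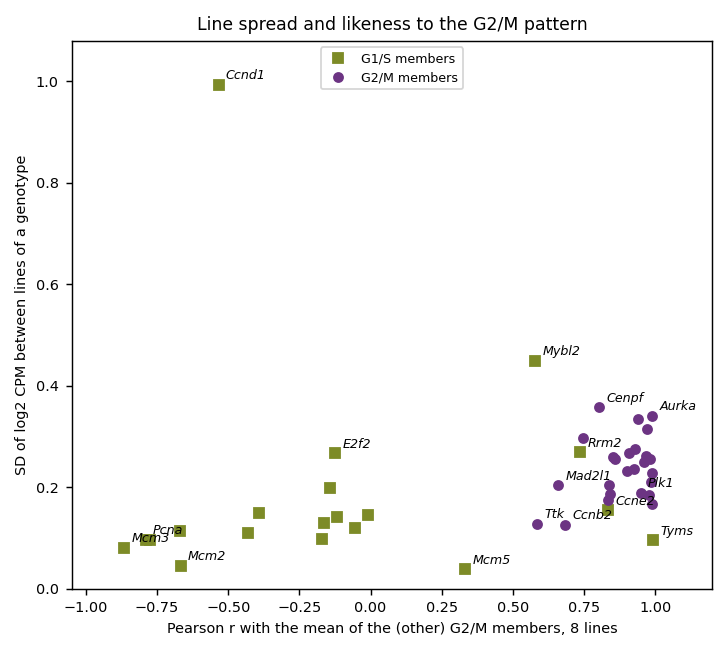
Standard deviation of log2 CPM between lines of a genotype (vertical axis) against the Pearson correlation with the mean of the G2/M members over 8 lines (horizontal axis; for a G2/M member, the mean of the others), for G1/S members (green squares) and G2/M members (purple circles). The G2/M members lie together at the right, from 0.59 to 0.99, with Tyms among them, and the G1/S members are scattered from -0.87 upward, with Ccnd1 far above at 0.99.

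The promoter letters printed above did not divide the G2/M members by their values. The 14 members with a CHR had a median log2 fold change of 0.21 and a median standard deviation between lines of 0.23. For the 5 without it, Ccnb1, Mad2l1, Cenpe, Nusap1 and Birc5, these were 0.21 and 0.27. Among G1/S members, the 8 with an E2F element had a median log2 fold change of -0.033 and the other 8 of -0.047. These are descriptions of few genes, given without a test.

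Further genes of the cycle were examined by list. Of 36 other G2/M genes 33 were higher and 3 lower in SLMAP3-/- lines, with a median log2 fold change of 0.15, and 0 passed the adjusted threshold in edgeR. At an unadjusted p under 0.05 there was 1, Hjurp, which encodes the chaperone of the centromeric histone. Hjurp was at 199, 279, 148 and 328 CPM in SLMAP3-/- lines and 185, 142, 137 and 179 CPM in WT lines, with SLMAP3-/- replicate 3 inside the WT range. The log2 fold change of Hjurp was 0.57 (SE 0.24, unadjusted p = 0.0448). The list was higher for 21 of 36 genes, with a median of 0.013, when SLMAP3-/- replicate 4 was left out. Of 32 other S phase genes 6 were higher and 26 lower, with a median of -0.056 and 0 at an unadjusted p under 0.05 in edgeR. Leaving out the same line gave 10 of 32 higher and a median of -0.049. DESeq2 gave 1 at that level in each of these lists and 0 at an adjusted p under 0.05. The genotypes did not overlap for 1 of these 32 S phase genes, Prim1, where 1.25% of all tested genes had such a separation. Prim1 ranged over 65.9 to 71.4 CPM in SLMAP3-/- and 71.7 to 74.6 CPM in WT lines. The edgeR estimate for Prim1 was -0.089 on the log2 scale (SE 0.063), with an unadjusted p of 0.196.

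Upstream of the members, 11 of 16 genes of the RB, E2F and DREAM proteins were higher and 5 lower, with a median log2 fold change of 0.063, and 0 had an unadjusted p under 0.05. The number higher was 6 of 16 without SLMAP3-/- replicate 4. Of 17 further kinases, cyclins and inhibitors 16 were tested, with 4 higher and 12 lower, a median of -0.057 and 1 gene at an unadjusted p under 0.05. This was Cdkn1a, which encodes the kinase inhibitor p21, at 48.5, 62.9, 56.9 and 58.7 CPM in SLMAP3-/- lines and 84.8, 97.7, 77.3 and 99.3 CPM in WT lines. These groups did not overlap, and the log2 fold change was -0.66 (SE 0.11, unadjusted p = 0.000322 and adjusted p = 1.00 in edgeR, adjusted p = 0.0167 in DESeq2). The 12 genes of the anaphase-promoting complex were split into 6 higher and 6 lower with a median of 0.0023. Of 14 genes of resting or arrested cells 4 were higher and 10 lower, with a median of -0.033, and 8 of 14 were higher without SLMAP3-/- replicate 4. Neither list had a gene at an unadjusted p under 0.05 in edgeR or DESeq2. Over all tested genes the median was -0.0014.

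Some members share sequence with copies elsewhere in the genome, and their counts are less certain. Over 10% of the 31-base stretches of Mybl2, Mcm7, Pcna, Rrm2, Ccnb1, Cdc20 and Plk1 also occur in transcripts of other genes, such as Ccnb1-ps and Plk-ps1. The copy that shares most with each member was checked, and it had at most 0.903% of the counts of the member in any line, except Pcna-ps2, which reached 9.02% of Pcna. Other copies were not examined, and for Rrm2 the copy checked covers 4.446% of its stretches, out of 11.98% shared in all. Exons of other genes lie over Ccnd1, Ccne2, Cdk2, Mcm7, Ccna2, Cdc20, Cdc25c, Plk1, Kif20a and Nusap1 on the opposite strand and over Mcm7, Foxm1 and Top2a on the same strand. The libraries were stranded, but whether counting used strand is not given in the sources used here.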

How the data were processed

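RNA of 4 SLMAP3-/- and 4 WT MEF lines was sequenced from stranded mRNA libraries. The authors used Salmon with the GENCODE M25 transcripts of GRCm38 and deposited, for each gene and line, an estimated count that was corrected for transcript length but not for library size. The versions of Salmon and DESeq2 are not given in the sources used here. A second deposited table holds the authors' DESeq2 comparison (fold changes, standard errors and p-values) and was not used.

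Estimated counts were rounded. In R 4.3.3, edgeR 4.0.16 was used with filterByExpr (minimum count 10), TMM normalization, the quasi-likelihood test of 4 against 4 lines without covariates and Benjamini-Hochberg adjustment over 15461 genes, with a threshold of 0.05. The standard error was derived from the fold change and the F statistic. Log2 CPM used a prior count of 2. The median biological coefficient of variation was 0.237, with totals of 49879059 to 63322486 counts per line. Exact permutation tests (scipy 1.17.1) are two-sided. The methods were tested on simulated data first.

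The members and the other gene lists were chosen with earlier results of these data known. Values in every line are given for the 3 members of lowest p and the 2 of largest and smallest spread in each group, and for a named set of hub genes. From each further list at most 3 genes with an unadjusted p under 0.05 are named, and the genes whose genotypes did not overlap. Alternatives were DESeq2 1.42.0, limma-voom (limma 3.58.1), DESeq2 size factors, no filter, at least 10 counts in every line, robust empirical Bayes, a replicate block, an adjusted p under 0.1, total-count scaling, a prior count of 0.5, and leaving out each line. Gene positions and shared 31-base stretches came from GENCODE M21 on GRCm38. Lines were isolated from embryos, and their replicate numbers come from the labels. Whether every line had its own embryo is not stated in the methods of the study. The deposited columns of SLMAP3-/- replicate 3 and WT replicate 4 carry a common number, MEF10, that the sources used here do not explain, so a shared litter or batch of this pair cannot be told from the data.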

Additional observations from a re-analysis of the deposited data

Results flagged for a closer look

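In each member and the line levels of both groups, the 4 lines of a genotype were checked for a line far from the others by Dixon's ratio, the gap to the nearest line divided by the range, at the 95% critical value for 4 values. Of 94 groups 7 exceeded it, and chance gives about 1 in 20, or 4.7. The G2/M members move together across lines, so the 94 checks are not separate and the 7 cannot be judged against 4.7. In 5 of the 7, SLMAP3-/- replicate 4 was the highest of its genotype. Ccnb2 was at 114 CPM there and at 93.2 to 94.3 CPM in the other SLMAP3-/- lines. Cenpa was at 116 CPM against 69.9 to 73.1 CPM. Cenpe was at 276 CPM against 150.1 to 169 CPM. Cenpf was at 232 CPM against 111 to 127 CPM. Mki67 was at 689 CPM against 493 to 512 CPM. The remaining flags concern other lines. Mybl2 was at 47.3 CPM in SLMAP3-/- replicate 3 and at 61.9 to 62.5 CPM in the other SLMAP3-/- lines. Mcm7 was at 319 CPM in WT replicate 1 and at 238 to 252 CPM in the other WT lines.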

How the results depend on the processing

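No member passed an adjusted p under 0.05 or under 0.1 in any of the 15 alternative fits. Over all genes, edgeR called 1, DESeq2 11 and the replicate block 0. With the replicate block the median log2 fold change was 0.17 for G2/M and -0.059 for G1/S members. Deviations of same-numbered lines from their genotype means had correlations of -0.16, 0.058, 0.19 and -0.0032, in order of replicate. The value for replicate 3 was the highest of all pairs of lines of different genotype. Not every line correlated best with its own number, so the numbers were not taken as pairs. A shared origin of same-numbered lines was not tested. For SLMAP3-/- replicate 3 and WT replicate 4, whose column names share a number, the correlation was 0.13. No member changed sign with another tool, scaling, filter or block. With a line left out, the G2/M median ranged from 0.051 to 0.28 and the G1/S median from -0.067 to -0.027, and 1 to 10 members changed sign, 10 of them without SLMAP3-/- replicate 4. The lowest and highest log2 fold changes of those that changed sign were -0.0098 and 0.20 for Birc5, -0.024 and 0.20 for Bub1, -0.0064 and 0.29 for Ccna2, -0.13 and 0.040 for Ccne1, -0.034 and 0.11 for Cdt1, -0.025 and 0.31 for Cenpe, -0.11 and 0.015 for Gmnn, -0.017 and 0.16 for Kif20a, -0.051 and 0.023 for Mcm3, -0.072 and 0.0087 for Mcm6, -0.012 and 0.14 for Mcm7, -0.14 and 0.31 for Mybl2, -0.037 and 0.075 for Rrm1, -0.18 and 0.050 for Rrm2, -0.0018 and 0.11 for Ttk, and -0.0035 and 0.090 for Tyms. The correlation between G1/S and G2/M members was 0.12 without SLMAP3-/- replicate 4, a setting chosen after seeing the data, against -0.18. The line levels without that line and without Ccnd1 were likewise chosen after seeing the data. The cause was not tested. Every member had at least 193 counts in each line. The standard error was 0.070 for Mcm5 and 0.073 for Mcm2, above their standard deviations between lines of a genotype, 0.038 and 0.045. What limited the members was not tested.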

Other observations

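Genes outside the lists of members that followed the G2/M level most closely were found by the Pearson correlation of log2 CPM, with genotype means removed, over 8 lines and among genes with a mean of at least 5 CPM. The 8 highest were Prr11, Cdca8, Zfp280c, Ube2c, Ankrd26, Arhgap11a, Kif20b and Asb6, with correlations from 0.98 to 0.99. Without SLMAP3-/- replicate 4 they were between 0.96 and 0.98. The 8 were picked from 10653 genes by their values in these same lines, so this is not separate support. Ube2c, which encodes the ubiquitin-conjugating enzyme of the anaphase-promoting complex, was at 125, 116, 99.5 and 224 CPM in SLMAP3-/- replicates 1 to 4 and at 131, 131, 100.5 and 94.0 CPM in WT replicates 1 to 4. Cdca8, which encodes a subunit of the chromosomal passenger complex with Birc5 and Aurkb, was at 87.5, 85.01, 70.3 and 119 CPM in SLMAP3-/- lines and 86.7, 90.5, 73.5 and 71.4 CPM in WT lines. Ube2c, Cdca8 and Kif20b also stand in the list of other G2/M genes. Ube2c and Cdca8 placed SLMAP3-/- replicate 4 first.

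The 4 genes that went most against the G2/M level were Glb1, Scd1, Ubxn6 and Lpcat3, with correlations from -0.997 to -0.991 over 8 lines and from -0.998 to -0.976 without SLMAP3-/- replicate 4. These genes were also picked by their values in the same lines. Scd1, which encodes a fatty acid desaturase, was at 429, 542, 754 and 187 CPM in SLMAP3-/- lines and 515, 468, 728 and 818 CPM in WT lines. Glb1, which encodes the lysosomal beta-galactosidase, was at 49.7, 53.2, 62.6 and 37.7 CPM in SLMAP3-/- lines and 51.3, 49.2, 57.9 and 61.3 CPM in WT lines.

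For the G1/S level the 8 highest were Slc2a1, Gtf2h1, Tmem126a, Mn1, Psma1, Gulp1, Sdhd and Nap1l4, from 0.96 to 0.99, and the 4 lowest were Uhrf2, Camta2, Dxo and Synrg, from -0.99 to -0.97. This level is moved much by Ccnd1, and against the level of the other 19 G1/S members the same genes had correlations from 0.56 to 0.80 and from -0.74 to -0.61. None of these 12 belongs to the lists of S phase genes. Slc2a1, which encodes a glucose transporter, was at 103, 91.5, 71.2 and 56.3 CPM in SLMAP3-/- lines and 107, 97.7, 92.5 and 83.5 CPM in WT lines. Among 47586 pairs of tested genes taken at a fixed step the correlations ran from -0.988 to 0.998, so values of this size also occur between genes taken without regard to the cell cycle.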
